A study of Bos taurus with 8 samples.

Results

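The let-7 family was followed in serum and in exosomes of cattle. It was taken as the 9 miRNAs bta-let-7a-5p, bta-let-7b, bta-let-7c, bta-let-7d, bta-let-7e, bta-let-7f, bta-let-7g, bta-let-7i and bta-miR-98, chosen by name among 534 bovine miRNAs listed, of which 445 had reads. The passenger arm bta-let-7a-3p was left out of the family and is given apart. All 9 members had reads in every library and belonged to the 365 expressed miRNAs, meaning those above 1 RPM (reads per 1000000 miRNA reads) in the sera or the exosomes of at least 2 cows.

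Blood was drawn from 4 healthy lactating Holstein cows, and 1 small RNA library per cow was made from serum and 1 from exosomes of the same serum. This gave 4 libraries of each kind, numbered by cow. Exosomes were obtained with a commercial isolation reagent, and the sera libraries were made from whole serum, which still held its exosomes. The RNA kit and the serum volume differed between sera and exosomes, so sample type and extraction cannot be told apart. Vesicle identity rests on the isolation alone, since exosome markers are proteins and were not measured in these files.

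let-7 miRNAs are an old and highly conserved family whose members share the seed, the stretch at the 5′ end that pairs with target mRNAs. They are known as markers of differentiated cells, as repressors of RAS, MYC, HMGA2 and LIN28 transcripts, and as targets of LIN28 proteins, which block the maturation of let-7 precursors. They are also among the miRNAs usually found in blood cells, plasma and vesicles, and miR-98 belongs to them by its seed although its name does not show it. Because members differ by few bases, the assignment of reads between them depends on how mismatches were treated, and reads that match several members could not be followed here.

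Depth was 264769 to 590162 miRNA reads for a serum library and 60682 to 157710 for an exosome library. A single read thus stood for 1.69 to 3.78 RPM on the serum side and 6.34 to 16.5 RPM on the exosome side, so the exosome values are the less precise ones. RPM divides by all miRNA reads, and the abundant red cell miRNA miR-486 alone took 13.0 to 20% of them in sera and 17.4 to 34.9% in exosomes. The 7 red cell miRNAs, all with reads in every library, took 22.9 to 32.5% in sera and 26.9 to 49.1% in exosomes. These 7 did not move together. The log2 fold change of sera over exosomes, fitted as described below, was -0.73 for miR-486, -0.59 for miR-92a and -0.003 for miR-451. It was 1.44 for miR-16a, 1.10 for miR-144, 0.93 for miR-363 and 0.65 for miR-16b, each higher in sera. White cell miRNAs took 3.05 to 3.97% and 3.18 to 4.62%, and platelet miRNAs 5.51 to 7.83% and 4.48 to 6.56%, with all 6 of each list present in every library. The members of these lists did not move together either. In the white cell list the log2 fold change was 1.38 for miR-146a, 0.86 for miR-223, 0.27 for miR-142-3p and 0.24 for miR-155. It was -0.08 for miR-142-5p and -0.18 for miR-150. In the platelet list it was 2.30 for miR-24-3p, 0.80 for miR-126-3p, 0.73 for miR-126-5p and 0.18 for miR-191. It was -0.01 for miR-21-5p and -1.08 for miR-197. The part of these cells in the let-7 levels was not tested, and more RNA per vesicle cannot be told apart from more vesicles.

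Together the 9 members made up 1.48% ± 0.319 (SD, n = 4) of miRNA reads in sera, against 1.28% ± 0.303 in exosomes. For cows 1 to 4 in order, the family sum in sera was 13975.8, 12718.5, 19522.6 and 12986.6 RPM. In the exosomes of the same cows it was 11205.8, 9894.6, 16829.5 and 13429.6 RPM. Cow 3 was highest in both sample types, and the ranges overlapped. The mean was 14801 RPM ± 3194 (SD, n = 4) in sera and 12840 RPM ± 3034 in exosomes, a difference of 1961 RPM. It was smaller than either SD, but those SDs measure the spread between cows and not that of the difference within cows. Leaving out 1 library of a pair moved the difference, to 387 RPM without the sera of cow 3 and 979 RPM without the exosomes of cow 2. It was 3291 RPM without the exosomes of cow 3. Such a fit keeps the other library of the cow, so the level of that cow enters the difference. Leaving out both libraries of cow 1, 2, 3 or 4 gave 1691, 1673, 1717 and 2762 RPM in that order. Within a cow the ratio of sera to exosomes ran from 0.967 to 1.29, with sera higher in 3 of 4 cows. When miR-486 was taken out of the denominator the means were 17536 and 17599 RPM, and sera were higher in 2 of 4 cows. With all sequences in analysis as denominator the difference was -465 RPM, and sera were higher in 1 of 4 cows.

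Most of the family in every library was let-7f, let-7i, let-7g and let-7a-5p, which together made up 78.4 to 80.5% of the family sum in sera and 79.7 to 84.0% in exosomes. The order of mean levels in sera was let-7f, let-7i, let-7g, let-7a-5p, let-7b, let-7d, let-7c, miR-98 and let-7e. In sera let-7f and let-7i, and let-7i and let-7g, differed by less than the spread of their difference over the 4 libraries. In exosomes let-7a-5p stood before let-7g and the order was otherwise the same. There let-7a-5p and let-7g, let-7b and let-7d, and let-7c and miR-98 did not differ beyond that spread. Among all miRNAs let-7f ranked 46 in sera and 35 in exosomes, whereas let-7e ranked 133 and 137.

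**Figure D1:**
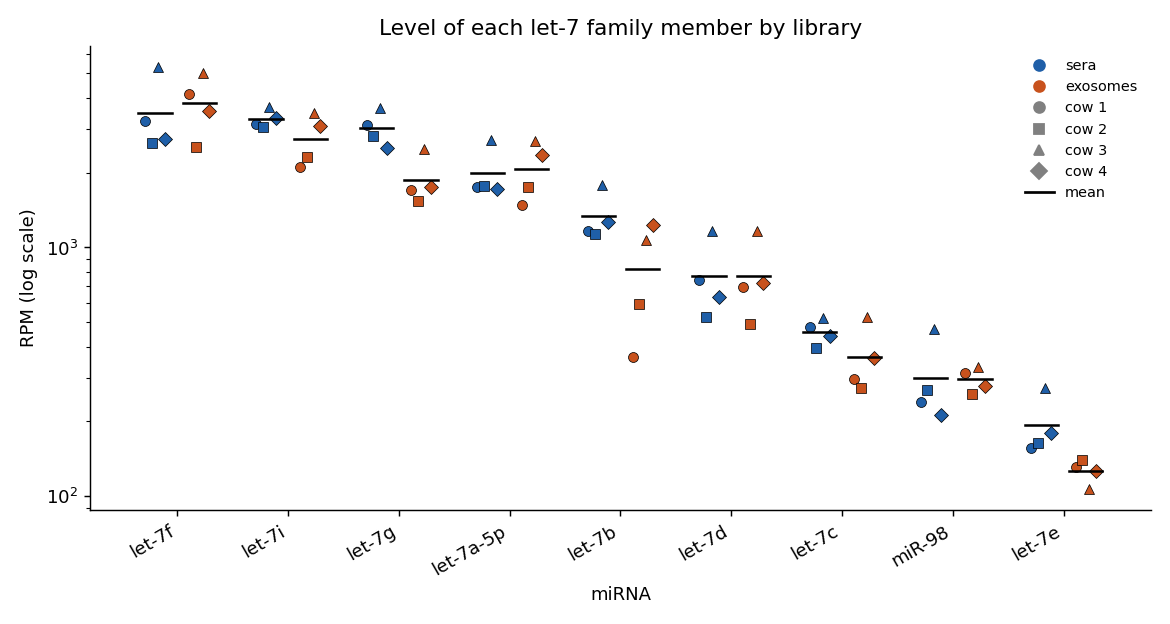
Level of each member in RPM (log scale) in each library, with sera in blue, exosomes in orange, 1 symbol shape per cow and a line at the mean of 4 libraries. The members span from 107.4 RPM for let-7e in the exosomes of cow 3 to 5306.5 RPM for let-7f in the sera of the same cow, and the triangle of cow 3 is the highest point for all 9 members in sera.

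Which members differed between sera and exosomes was tested with limma on log2(RPM + 1) over all 365 expressed miRNAs, with the limits of the study (FDR under 0.05 and log2 FC over 1 or under -1, where log2 FC is sera minus exosomes). None of the 9 members passed both limits (0 of 9, beside 4.38% of all 365), and 0 of 9 passed the FDR at any fold change (beside 6.85%). At an unadjusted p under 0.05 there were 2 members in limma, let-7b and let-7g, both with the higher level in sera, which is close to the 22.7% of all expressed miRNAs that did so. On recovered reads 0 members passed the FDR in edgeR with TMM (beside 4.93%), with let-7g as the 1 member at an unadjusted p under 0.05 (beside 15.1%). In DESeq2 0 members passed the FDR (beside 7.67%), with let-7f, higher in exosomes, as the 1 member at an unadjusted p under 0.05 (beside 14.5%). The fold changes of the members were positive for 6 and negative for 3, and their median log2 FC was 0.29. The median was 0.57 over all 365 miRNAs and 0.31 over the 128 that reached 10 reads in each of the 8 libraries (called well covered below), so zero is not the middle of this scale.

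The sera and exosome libraries came in pairs from the same cows, and this matters for let-7b and let-7g. With the cow as a block, limma gave 2 of 9 members past the FDR, let-7b and let-7g, both higher in sera, beside 23.0% of all expressed miRNAs higher in sera. edgeR with the block gave the same 2 members higher in sera (beside 15.1%) and let-7f higher in exosomes (beside 6.58%). Under the block limma took nearly 1 common spread for miRNAs of a given level, and its very small FDR values rest on that estimate. With the block 0 members passed the fold change limit as well, beside 9.59% in limma and 7.12% in edgeR, and those at an unadjusted p under 0.05 were 3 in limma (beside 35.3%) and 4 in edgeR (beside 27.9%).

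let-7g had the lowest unadjusted p of the family in limma, and its libraries did not overlap. For cows 1 to 4 its level was 3099.1, 2795.8, 3637.1 and 2500.9 RPM in sera, and 1697.4, 1536.0, 2479.5 and 1756.4 RPM in exosomes. The lowest serum (cow 4) lay just above the highest exosome library (cow 3), and each cow had more let-7g in serum. The means were 3008 RPM ± 485 (SD, n = 4) and 1867 RPM ± 419, and the log2 FC was 0.70 with a standard error of 0.21 and an FDR of 0.0602 in limma. With the cow as a block, the FDR was 2.64e-07 in limma and 0.00351 in edgeR, where the log2 FC was 0.48. The call thus depended on the pairing, and also on which miRNAs and libraries were tested. The FDR without the block was 0.0332 when only the well covered miRNAs were tested, a filter under which 23.4% of 128 miRNAs passed with the higher level in sera. Without the exosomes of cow 3 it was 0.0255, and without both libraries of cow 3 it was 0.0485. The share of all expressed miRNAs that passed was not counted in those fits. With the sequences in analysis of each library as denominator in place of miRNA reads, the log2 FC of let-7g was -0.01.

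let-7b had the largest fold change of the family in limma, though not in edgeR with TMM, DESeq2 or limma without the exosomes of cow 1, and the largest CV among exosomes (49.9%). Its sera held 1160.3, 1133.6, 1782.7 and 1269.5 RPM, and its exosomes 362.5, 592.6, 1073.8 and 1236.4 RPM. Each cow had more let-7b in serum, but by very different amounts, since cow 1 had far less in exosomes and cow 4 nearly as much as in serum. The value of cow 1 rested on 22 reads, with a 95% exact Poisson interval of 227 to 549 RPM for counting error. The log2 FC was 0.84 with a standard error of 0.34 and an FDR of 0.149 in limma, and 0.45 with an FDR of 0.503 in edgeR. It was 0.34 in DESeq2, and 0.13 in limma with the sequences in analysis as denominator. The size of the let-7b difference thus depended on the scaling and on single libraries. Leaving out the exosomes of cow 1 gave a log2 FC of 0.51, and leaving out both libraries of cow 4 gave 1.11. With the cow as a block the FDR was 1.34e-07 in limma, and 0.00936 in edgeR at a log2 FC of 0.50.

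let-7e, whose gene lies beside those of miR-99b and miR-125a, was the scarcest member. It reached 157.2, 164.4, 271.9 and 179.4 RPM in sera and 131.8, 140.3, 107.4 and 126.8 RPM in exosomes. All 4 sera lay above all 4 exosome libraries, yet the exosome values rested on 8 to 20 reads. The 8 reads of cow 1 have an interval of 56.9 to 259.8 RPM, which covers 3 of the 4 serum values. The log2 FC was 0.58 with a standard error of 0.34 and an FDR of 0.307 in limma. let-7e and let-7g were the 2 members whose libraries did not overlap between sera and exosomes, beside 11.8% of all expressed miRNAs that did so with sera higher. With miR-486 taken out of the denominator 0 members separated in this way. The share over all expressed miRNAs was not counted on that scale, so the drop cannot be read as particular to the members. With the sequences in analysis as denominator 1 member separated, let-7f with exosomes higher, beside 4.93% of all expressed miRNAs on that scale.

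let-7f, which had the highest mean in both sample types but lay above let-7i in only 2 of 4 sera, had overlapping levels in sera and exosomes. Its sera held 3222.6, 2626.4, 5306.5 and 2727.4 RPM, and its exosomes 4119.8, 2534.1, 4998.1 and 3531.8 RPM. Exosomes were higher in cows 1 and 4 and sera in cows 2 and 3. The log2 FC was -0.15 with a standard error of 0.26 and an FDR of 0.767 in limma. With the cow as a block it was -0.15 in limma with an FDR of 0.400, and -0.35 in edgeR with an FDR of 0.0325.

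let-7i held 3121.5, 3046.6, 3656.0 and 3299.4 RPM in sera, which made it the steadiest member over the 4 sera (CV 8.28%). Its exosomes held 2109.4, 2315.8, 3465.5 and 3062.6 RPM, lower in every cow but overlapping the sera through cows 3 and 4. The log2 FC was 0.29 with a standard error of 0.20 and an FDR of 0.395 in limma. With the cow as a block the FDR was 0.0636 in limma, and 0.817 in edgeR at a log2 FC of 0.0623. let-7a-5p, which RefSeq annotates at 3 loci, held 1755.4, 1765.6, 2711.8 and 1722.6 RPM in sera and 1483.1, 1754.4, 2684.5 and 2352.4 RPM in exosomes. The sera of cows 1, 2 and 4 lay within a narrow band and cow 3 stood apart above them. The log2 FC of let-7a-5p was -0.05 with a standard error of 0.23 and an FDR of 0.945 in limma.

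The 3 remaining members were lower and did not separate. let-7d, from the same cluster as let-7a-1 and let-7f-1, had a mean of 766 RPM ± 280 (SD, n = 4) in sera and 767 RPM ± 282 in exosomes, with a log2 FC of 0.00, a standard error of 0.30 and a limma FDR of 0.998. let-7c, the neighbour of miR-99a and miR-125b-2, had 459 RPM ± 54.1 and 365 RPM ± 115, with a log2 FC of 0.37 and a limma FDR of 0.409. miR-98 had 298 RPM ± 118 and 295 RPM ± 33.5, with a log2 FC of -0.05 and a limma FDR of 0.954. With 4 libraries a group these values do not show that the levels were equal.

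**Figure D2:**
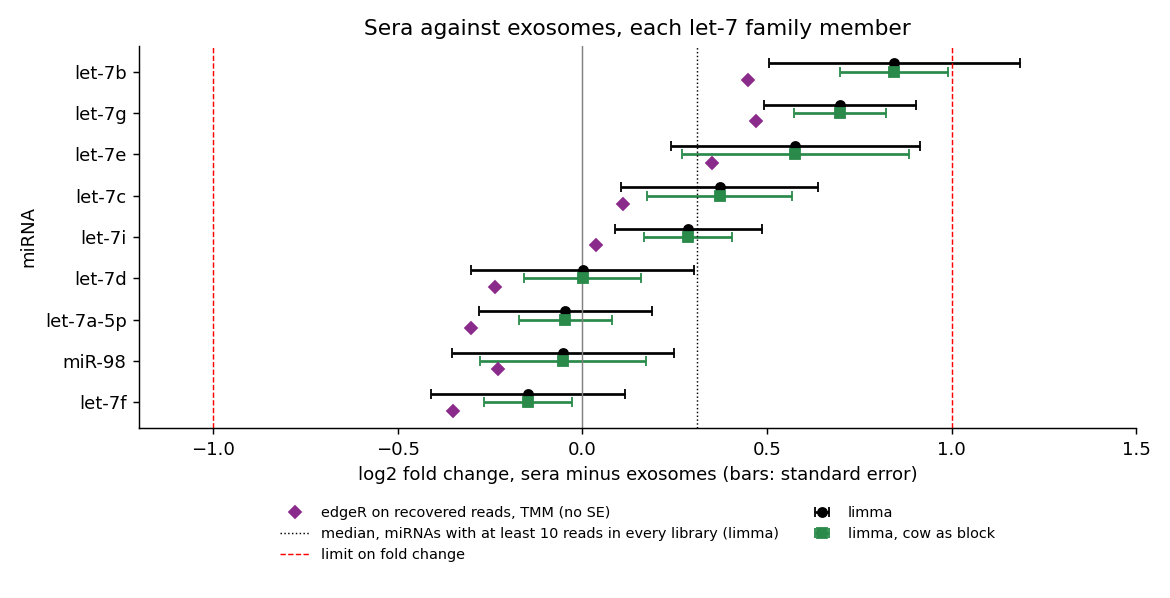
log2 FC (sera minus exosomes) of each member, as fitted by limma without and with the cow as a block (points with standard errors) and by edgeR on recovered reads (no error drawn). The red lines mark the limit on fold change and the dotted line the median of the 128 well covered miRNAs, which limma put at 0.31. No limma or edgeR point lies beyond a red line, and let-7b, let-7g, let-7e and let-7c lie to the right of the dotted line in limma.

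Scaling moved all miRNAs together, so members were also placed relative to the median of the well covered miRNAs. That median was 0.31 in limma, 0.11 in edgeR with TMM, -0.02 in DESeq2, 0.11 without miR-486 and -0.39 with the sequences in analysis as denominator. Relative to it, limma put let-7b at 0.54, let-7g at 0.39, let-7e at 0.27, let-7c at 0.06 and let-7i at -0.02. The values were -0.31 for let-7d, -0.36 for let-7a-5p and miR-98, and -0.46 for let-7f. In edgeR with TMM let-7b stood at 0.34 and let-7g at 0.36, and in DESeq2 at 0.36 and 0.37, so the lead of let-7b depended on the tool. A change of denominator shifts all miRNAs nearly alike and so leaves these values almost as they are by construction. Leaving out a library or a cow can move them. Over 12 such fits let-7g ran from 0.25 to 0.53, let-7b from 0.10 (without the exosomes of cow 1) to 0.77 (without cow 4) and let-7e from 0.07 (without cow 3) to 0.43. let-7f ran from -0.65 to -0.31 and let-7d from -0.49 to -0.09. let-7c and let-7i lay on either side of the median, at -0.12 to 0.25 and -0.24 to 0.10.

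The composition of the family does not depend on the denominator of RPM. let-7g was the single member whose share of the family sum did not overlap, with 22.17, 21.98, 18.63 and 19.26% of the sera sums of cows 1 to 4, and 15.15, 15.52, 14.73 and 13.08% of the exosome sums. Its mean share was 20.5% ± 1.83 (SD, n = 4) in sera and 14.6% ± 1.08 in exosomes. let-7b had the larger share in the sera of all 4 cows, at 9.03% ± 0.608 against 6.20% ± 2.44. let-7f, let-7a-5p and let-7d had the larger share in the exosomes of all 4 cows. For let-7f it was 23.0% ± 3.0 in sera and 29.6% ± 5.10 in exosomes, for let-7a-5p 13.4% ± 0.632 and 16.1% ± 2.07, and for let-7d 5.07% ± 0.772 and 5.86% ± 0.860. let-7i kept 22.6% ± 2.87 and 21.4% ± 2.10. Shares of the same sum are bound to each other, so a larger share of let-7f goes with smaller shares of the rest. How often a share separates, or is larger in the same sample type in all 4 cows, was not counted for other miRNAs.

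**Figure D3:**
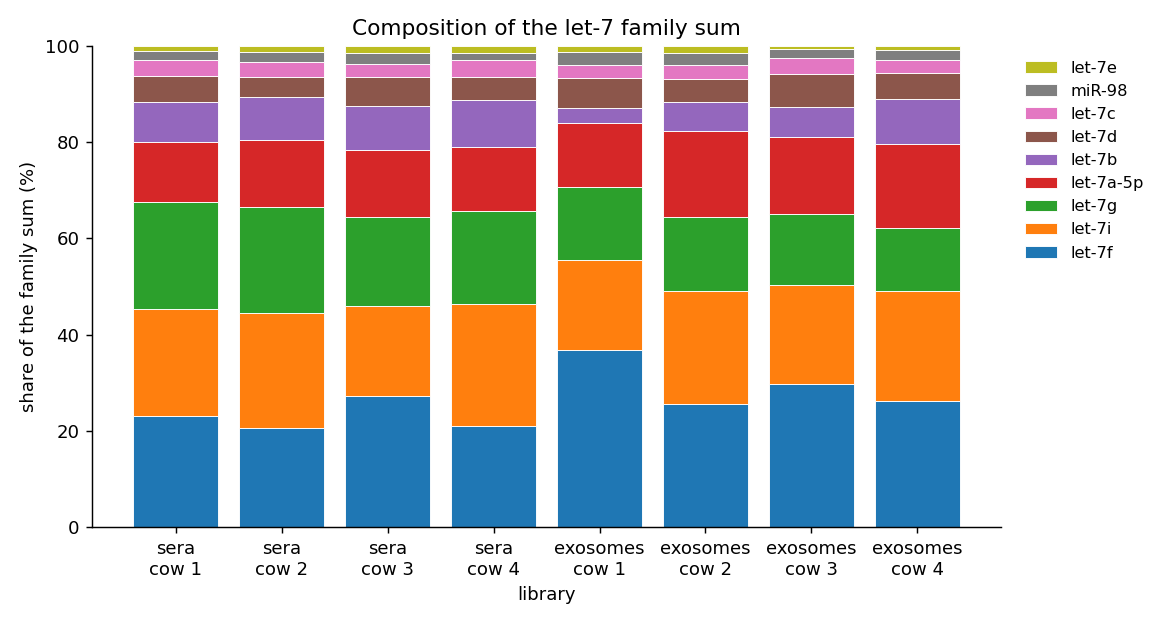
Share of each member in the family sum (%), 1 stacked bar per library. The green block of let-7g is 18.6 to 22.2% of each sera bar and 13.1 to 15.5% of each exosome bar, and the blue block of let-7f is larger in the exosomes than in the serum of every cow.

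In RPM the difference of 1961 in the family sum came from few members. let-7g contributed 1141 RPM, let-7i 543 RPM and let-7b 520 RPM in favour of sera, and let-7f contributed -325 RPM and let-7a-5p -79.8 RPM in favour of exosomes. This breakdown holds for RPM over all miRNA reads only. The difference itself was -63.5 RPM without miR-486 in the denominator and -465 RPM with the sequences in analysis as denominator.

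Ratios within a library compare members without any denominator. Of the 28 pairs among the 8 well covered members (all but let-7e), 4 had ratios that did not overlap between sera and exosomes, beside 22.1% of all 8128 pairs of such miRNAs. Pairs that share a member are not independent. The ratio of let-7f to let-7g was 1.04, 0.939, 1.46 and 1.09 in sera and 2.43, 1.65, 2.02 and 2.01 in exosomes. All 4 exosome ratios lay above all 4 sera ratios. The ratio of let-7a-5p to let-7g was 0.658 ± 0.077 (SD, n = 4) in sera and 1.11 ± 0.192 in exosomes, and that of let-7a-5p to let-7b was 1.49 ± 0.089 and 2.86 ± 0.926. let-7g to miR-98 went the other way, with 10.7 ± 2.25 in sera and 6.29 ± 0.866 in exosomes. With 1 cow left out at a time the number of such pairs was 5 to 13 of 28, the highest without cow 3, while the share over all pairs also went up, to between 28.1% (without cow 2) and 33.8% (without cow 3).

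**Figure D4:**
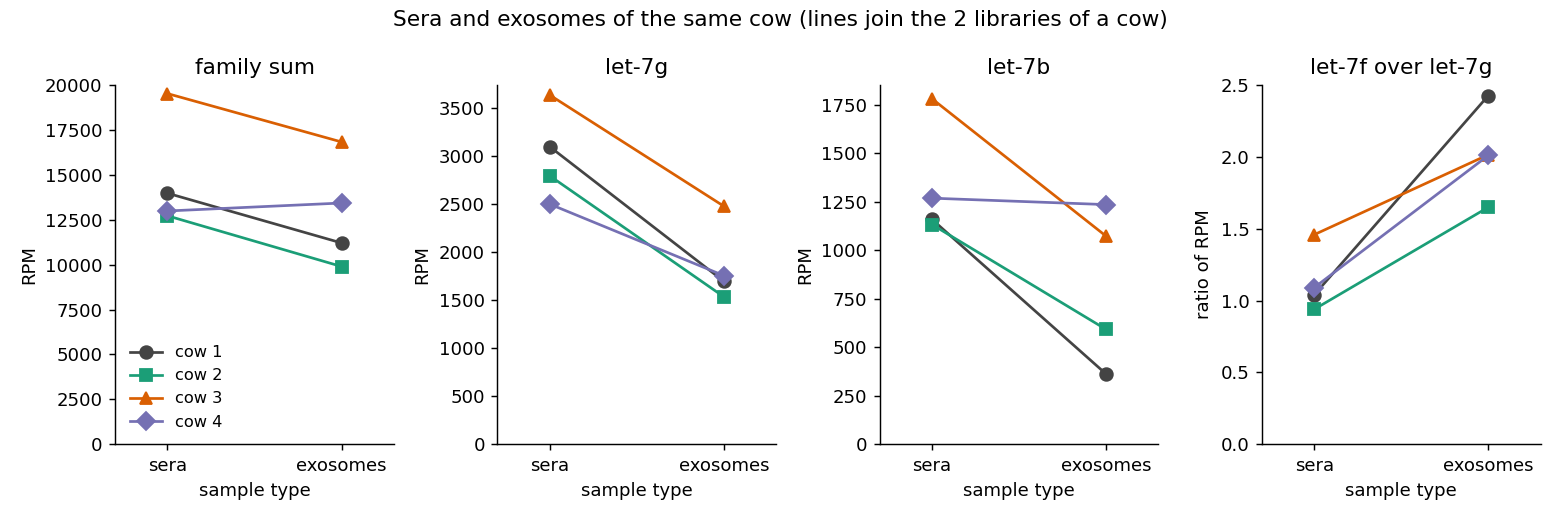
Family sum, let-7g and let-7b (RPM) and the ratio of let-7f to let-7g in sera and exosomes, with a line joining the libraries of each cow and all axes starting at 0. let-7g is lower in the exosomes of all 4 cows, let-7b has nearly the same level in both libraries of cow 4 (1269.5 and 1236.4 RPM), and the ratio is higher in the exosomes of all 4 cows, at 1.65 to 2.43 beside 0.939 to 1.46 in sera.

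The cows differed in let-7 level, and cow 3 had the most. Cow 3 was highest for 9 of 9 members in sera, beside 48.4% of the 128 well covered miRNAs. In exosomes it was highest for 7 of 9, beside 31.2%, and in both for 7 of 9, beside 27.3%. The exceptions in exosomes were let-7b, highest in cow 4, and let-7e, highest in cow 2. Relative to the mean of the other 3 cows the sera of cow 3 held 1.16 times the let-7i and 1.97 times the miR-98, the ends of the range over members. In exosomes the range ran from 0.808 for let-7e to 1.83 for let-7d. The counts were the same without miR-486 in the denominator, beside 60 of the 128 well covered miRNAs in sera, 42 in exosomes and 39 in both. With the sequences in analysis as denominator they were 2 of 9 in sera and 0 of 9 in exosomes, beside 14 and 8 of the 128. On that scale cow 2 was highest for 97 of the 128 in sera, and cow 4 for 111 in exosomes. Members of one library share its denominator, so the 9 are not independent, and the platelet sum was also highest in cow 3 in sera (7.83%) while in exosomes it was highest in cow 1 (6.56%).

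The miRNAs next to let-7 genes offer a comparison within the same loci. In RefSeq, 11 of the 12 let-7 and miR-98 genes have another miRNA gene within 100 kb. let-7a-2 lies with miR-100 and miR-125b-1, let-7c with miR-99a and miR-125b-2, and let-7e with miR-99b and miR-125a. let-7a-1, let-7f-1 and let-7d lie together, as do let-7a-3 and let-7b, and miR-98 and let-7f-2 inside the gene of the ubiquitin ligase HUWE1. let-7g lies inside WDR82, which codes for a protein of histone methyltransferase complexes, and let-7i is the gene without a miRNA neighbour. All 3 loci of let-7a-5p and both of let-7f give the same mature miRNA, so the locus of a read is not known.

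Of these neighbours, miR-99a-5p, miR-99b, miR-100, miR-125a and miR-125b were measured apart. In limma 0 of 5 passed the FDR (beside 6.85% of all expressed miRNAs), and in edgeR 0 of 5 (beside 4.93%). At an unadjusted p under 0.05 there were 3 in limma, all higher in sera (beside 22.7%). miR-100 held 400.5, 447.3, 332.4 and 583.2 RPM in sera and 247.2, 288.5, 58.6 and 260.0 RPM in exosomes. Its libraries did not overlap, and the lowest exosome value, that of cow 3, rested on 6 reads. The log2 FC was 1.24 for miR-100 with a limma FDR of 0.120, 1.26 for miR-99a-5p with 0.124, 0.85 for miR-125b with 0.0882, 0.67 for miR-125a with 0.231 and 0.23 for miR-99b with 0.668. With the cow as a block 4 of 5 passed the FDR with the higher level in sera in both limma and edgeR, miR-99b being the exception. Over all expressed miRNAs the share that did so was 23.0% in limma and 15.1% in edgeR. Cow 3 was highest for 0 of these 5 in either sample type, although they lie beside let-7 genes. Over the well covered miRNAs that cow was highest for 48.4% in sera and 31.2% in exosomes. The passenger arm let-7a-3p held 64.2 RPM ± 11.7 (SD, n = 4) in sera and 58.2 RPM ± 24.0 in exosomes, on 4 to 36 reads, with a log2 FC of 0.21 and a limma FDR of 0.835.

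The members did not all vary alike over the 8 libraries. The SD of the log2 ratio of a pair was 0.148 for let-7c and let-7i and 0.164 for let-7d and let-7f, the lowest among 36 pairs of members, with a median of 0.418. let-7d and let-7f-1 share a cluster, while let-7c and let-7i do not. Outside the family, the 5 miRNAs whose centred log2 level was most like that of the family sum over the 8 libraries were miR-423-5p (root mean square difference 0.129), miR-301a (0.198), miR-2284x and miR-2284y (0.214, with identical values and thus 1 measurement) and miR-148a (0.222). miR-423-5p was closer to the family sum than any single member, of which let-7c (0.146) and let-7i (0.151) came nearest. The libraries share their denominators, so part of such likeness is common to all miRNAs.

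The closest companion of let-7b was miR-3596, which was named after its values were seen. miR-3596 held 797.2, 816.7, 1163.3 and 874.7 RPM in sera and 214.2, 405.5, 741.9 and 875.0 RPM in exosomes. It followed let-7b through every library, including the low exosomes of cow 1 and the high exosomes of cow 4, at 0.591 to 0.720 of its level. The SD of the log2 ratio was 0.0892, the smallest for let-7b among 210 miRNAs, and 0.234 would arise from counting alone if the reads were independent. Of 22155 pairs of miRNAs, 10 were at or below that SD, and the median was 0.827. In RefSeq the hairpin of miR-3596 overlaps that of let-7b by 78 bases, which is 94.0% of the one and 96.3% of the other. The identical values of miR-2284x and miR-2284y show that some reads were assigned to more than 1 miRNA. Whether this was so for let-7b and miR-3596, and whether reads were counted by strand, is not given in the sources used here. Reads of let-7b and miR-3596 thus cannot be told apart, and the level of let-7b is uncertain to that extent. The log2 FC of miR-3596 was 0.89 with a limma FDR of 0.157.

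**Figure D5:**
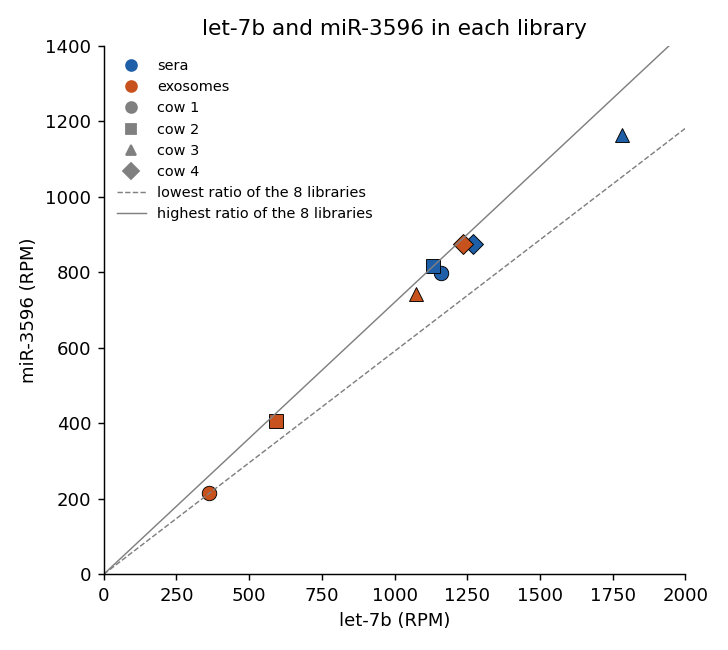
Level of miR-3596 against that of let-7b (RPM) in the 8 libraries, with sera in blue, exosomes in orange and 1 symbol shape per cow. The lines mark the lowest (0.591) and highest (0.720) ratio, and all 8 points lie in the wedge between them.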

How the data were processed

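The authors filtered reads by quality with CASAVA 1.8, aligned reads over 15 nt to bovine miRBase miRNAs with sRNAbench, each library separately, and deposited 1 table per library in RPM, the reads of a miRNA per 1000000 miRNA reads. RPM has no length term, and a mature miRNA is its own unit. Whole reads were recovered from the steps of the RPM values, with 100% whole within the rounding of 0.05 RPM. limma (lmFit, eBayes with a trend) was run on log2(RPM + 1), and its fold changes are on that scale unless an alternative is named. Fold changes of edgeR and DESeq2 come from their own fits to recovered reads. edgeR's quasi-likelihood test and DESeq2 on recovered reads were alternatives, with FDR by Benjamini-Hochberg over all miRNAs tested. Samples were grouped by their labels. Libraries were paired by cow as the study states. Over 128 miRNAs the deviations from the group means correlated at 0.740 to 0.860 within cows and at -0.244 on average between cows. Deviations from a group mean cancel out over the cows, so the negative value follows from the correlation within cows and is not separate support for the pairing. The fits were tested on simulated data. Members and lists were chosen with earlier results of these data known. Named were all members, 5 neighbours, the passenger arm and the 5 other miRNAs most like the family sum. Intervals cover counting error only. Gene neighbours came from RefSeq (ARS-UCD2.0). The alternatives were pseudocounts of 0.1 and 10, no filter or at least 10 reads, other denominators, other tools, the cow as a block, and each library or cow left out. Values relative to the median miRNA, other denominators for the highest cow, and pair ratios with a cow left out were added after seeing the data. The number of sequences in analysis per library was taken from the study. RT-qPCR was not analysed here. Fits ran in R 4.3.3 with DESeq2 1.42.0, edgeR 4.0.16 and limma 3.58.1, and tables and plots in Python 3.11.15 with pandas 2.3.3, SciPy 1.17.1, NumPy 2.4.6 and matplotlib 3.10.9.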

Additional observations from a re-analysis of the deposited data

Results flagged for a closer look

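The sera of cow 3 held 2710 RPM of let-7a-5p, farther from the other 3 sera (1722.6 to 1765.6 RPM) than Dixon's critical value for 4 libraries allows. It was the single value so marked among 50 groups of 4 libraries, and chance alone marks about 1 in 20 groups. The exosomes of the same cow held 2684.5 RPM and were not marked.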

How the results depend on the processing

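No member passed both limits in any setting tried. The number past the FDR was 0 in limma. It was 1 with at least 10 reads in every library (let-7g, beside 23.4% of 128 miRNAs higher in sera). With a library or a cow left out it was 0 to 1. The 1 was again let-7g, without the exosomes of cow 3 or both libraries of cow 3. The share over all expressed miRNAs was not counted in those fits, so that call cannot be read as particular to let-7g. With the replicate block the number past the FDR was 2 in limma and 3 in edgeR, and the block moved no other member across the FDR limit. With the sequences in analysis as denominator the family sum was 986 RPM in sera and 1452 RPM in exosomes, a difference of -465 RPM. On that scale 1 member did not overlap (let-7f, higher in exosomes, beside 4.93% of all). Cow 3 was then highest for 2 members in sera and 0 in exosomes, beside 14 and 8 of the 128 well covered miRNAs. Without miR-486 in the denominator the exosome sum was 17599 RPM, the difference -63.5 RPM, and 0 members did not overlap (the share over all was not counted). Some small fold changes turned sign. let-7d was -0.24 in edgeR with TMM, -0.0046 with library totals, -0.36 in DESeq2, -0.23 in edgeR with the block, -0.20 without miR-486 and -0.70 with the sequences in analysis. miR-98 was 0.014 in edgeR with library totals, and in DESeq2 let-7c was -0.018 and let-7i -0.083. With the sequences in analysis let-7c was -0.33, let-7i -0.42, let-7e -0.12 and let-7g -0.012. With a library or cow left out, let-7a-5p ran from -0.204 to 0.0927, let-7d from -0.221 to 0.224 and miR-98 from -0.297 to 0.0845, and let-7b and let-7g kept their sign at 0.51 to 1.11 and 0.60 to 0.84. The difference in the family sum was 387 to 3291 RPM with a library left out, and 1673 to 2762 RPM with both libraries of a cow left out. Pairs of members whose ratio did not overlap numbered 5 to 13 with a cow left out, beside 28.1 to 33.8% of all pairs of well covered miRNAs. Depth limits let-7e most, with 8 to 20 reads in exosomes. The cause of these shifts was not tested.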
